A study of Homo sapiens with 4 samples.

Results

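The transcripts described here are the expressed processed pseudogenes of 769-P cells, a human renal clear cell carcinoma line. They are the rows annotated with the biotype processed_pseudogene whose mean over all 4 libraries was at least 2 FPKM, a unit of fragments per kilobase of the gene, adjusted for library size. Of 58735 genes in the tables, 10191 were processed pseudogenes, and 251 of these met the rule. A further 2637 lay above 0 and under 2 FPKM, and 7303 were listed at 0 in all libraries. Because the mean level chose the members, their levels are a description. The contrast between the groups was not used to choose them.

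The doxycycline group, 2 libraries, came from cells given the drug at 1 µg/ml for 4 days, which switches on a stably transfected, inducible short hairpin RNA against USP35, a deubiquitylating enzyme. The control group, 2 libraries, was the same transfected line left untreated, grown with puromycin like the treated cells. The line is otherwise described as wild type. Doxycycline-treated cells lacking the hairpin were not analysed here, so effects of the drug and of the hairpin cannot be told apart. Whether the line is 1 clone, and whether replicates were separate cultures, is not stated in the labels, so the p-values reflect the spread among the 4 libraries alone, which may be technical. In such bulk samples, fewer cells of a type and less RNA per cell cannot be told apart.

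Processed pseudogenes are copies of messenger RNAs that were reverse transcribed and inserted elsewhere in the genome, a reaction carried out in human cells by the LINE-1 machinery. They lack the introns and usually the promoter of the parent gene, and most carry mutations that spoil the reading frame. Genes active in the germ line at high levels, above all those for ribosomal proteins, have left the most copies. A young copy still resembles its parent so closely that a short sequencing read from the parent messenger RNA can also match the copy.

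The resemblance is visible in the sequences. They are shown for copies that are among the highest members or that the comparisons with doxycycline and with the parent turn on, all 5′ to 3′ from GENCODE release 29 on GRCh38, with each parent's coding part beside the copy. Capitals mark the bases at which copy and parent differ. TMSB4XP8 (chr4:90838903-90839037, minus strand, inside an intron of CCSER1) is a copy of TMSB4X on chromosome X, which encodes the actin-sequestering peptide thymosin beta 4. Over its 135 bases it differed from the parent's coding sequence at 1 base.
TMSB4XP8: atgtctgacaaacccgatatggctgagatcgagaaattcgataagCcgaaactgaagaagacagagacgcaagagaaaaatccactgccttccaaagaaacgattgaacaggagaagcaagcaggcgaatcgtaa
TMSB4X: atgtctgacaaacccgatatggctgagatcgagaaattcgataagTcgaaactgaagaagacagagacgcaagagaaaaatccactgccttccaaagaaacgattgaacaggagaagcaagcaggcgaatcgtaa
RPL39P3 (chr6:73373108-73373263, minus strand, inside an intron of OOEP) had the same 156 bases as the coding sequence of RPL39 on chromosome X, a protein of the large ribosomal subunit, so only the copy is printed.
RPL39P3: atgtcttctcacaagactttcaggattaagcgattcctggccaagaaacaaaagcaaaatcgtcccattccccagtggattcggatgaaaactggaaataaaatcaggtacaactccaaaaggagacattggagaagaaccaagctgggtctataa
AC112777.1 (chr12:20551590-20553012, plus strand, inside an intron of PDE3A) is a partial copy of UHRF1 on chromosome 19, a reader of hemimethylated DNA that recruits the maintenance methyltransferase. It differed at 8 of 1422 aligned bases, and 5 of the differences lie in the 120 bases printed (chr12:20551965-20552084).
AC112777.1: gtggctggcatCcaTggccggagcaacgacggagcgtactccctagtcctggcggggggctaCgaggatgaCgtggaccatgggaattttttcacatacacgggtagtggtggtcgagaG
UHRF1: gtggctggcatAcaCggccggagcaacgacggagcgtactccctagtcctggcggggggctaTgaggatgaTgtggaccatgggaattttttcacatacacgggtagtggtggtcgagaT
RPL13AP20 (chr12:12875499-12876107, plus strand, overlapping no other annotated gene) is a copy of RPL13A on chromosome 19, another protein of the large subunit. It differed at 20 of 609 bases, 11 of them in the 120 printed (chr12:12875682-12875801).
RPL13AP20: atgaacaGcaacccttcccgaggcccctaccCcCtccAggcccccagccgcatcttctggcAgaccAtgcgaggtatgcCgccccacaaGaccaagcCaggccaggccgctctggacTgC
RPL13A: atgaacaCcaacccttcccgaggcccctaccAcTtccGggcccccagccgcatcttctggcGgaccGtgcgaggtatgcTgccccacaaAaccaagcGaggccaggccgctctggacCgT
HMGB1P10 (chr22:26560526-26561088, plus strand, inside an intron of TPST2) is a copy of HMGB1 on chromosome 13, a DNA-bending chromatin protein. It differed at 15 of 563 bases, 6 of them in the first 120 (chr22:26560526-26560645).
HMGB1P10: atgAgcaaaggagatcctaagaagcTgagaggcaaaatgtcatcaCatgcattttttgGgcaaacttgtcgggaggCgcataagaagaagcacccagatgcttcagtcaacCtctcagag
HMGB1: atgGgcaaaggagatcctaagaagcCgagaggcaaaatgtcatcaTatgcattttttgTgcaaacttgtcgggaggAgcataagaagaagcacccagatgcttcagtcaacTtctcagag

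The symbol gave the parent of 161 members, which had 129 distinct parents, and the gene description gave it for 63 more. Each member was aligned to all protein-coding transcripts. A coding match was found for 246, on the plus strand in 245, with a median identity of 98.2%, and 17 were identical to a coding transcript over their whole length. The parent named by the symbol was the closest coding gene for 160 of 161. The exception was EIF5AP4, named for the translation factor EIF5A but closest to EIF5AL1. Of the 63 parents given by the description, 60 matched the closest coding transcript. RPSA and FTH1 had 4 members each, and RPL21, RPS7, HNRNPA1, RPL24 and RPL13A had 3 each. PPIA, the cyclophilin A gene, had 2 members among its 86 copies, and RPL23A had 1 among 84.

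Classes of higher level had lower median uniqueness, with exceptions. Uniqueness was measured as the share of a row's 50-base windows that occur in no transcript of another gene on either strand. Its median was 20.4% in the 24 members at 50 FPKM or more, 28.4% at 10 to 50 FPKM, 46.7% at 5 to 10 FPKM and 64.7% in the 113 members at 2 to 5 FPKM. Processed pseudogenes above 0 and under 2 FPKM had a median of 96.9%, and those at 0 in all libraries had 100%. TMSB4XP8, the highest member, had 53.5%, above the members' median of 43.8%. A window with 1 differing base counts as unique, and this copy differs from the coding sequence of TMSB4X at 1 of 135 bases. No unique window was found in 21 members, which held 10.9% of the members' reads, and 5 of the 21 were in the class at 50 FPKM or more, while 22 members were unique throughout. This search covered annotated transcripts and not the genome, and read length, strandedness and the handling of reads with several matches are not given in the sources used here. The level of a member therefore cannot be told apart from reads of its parent where the sequences are the same.

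**Figure D1:**
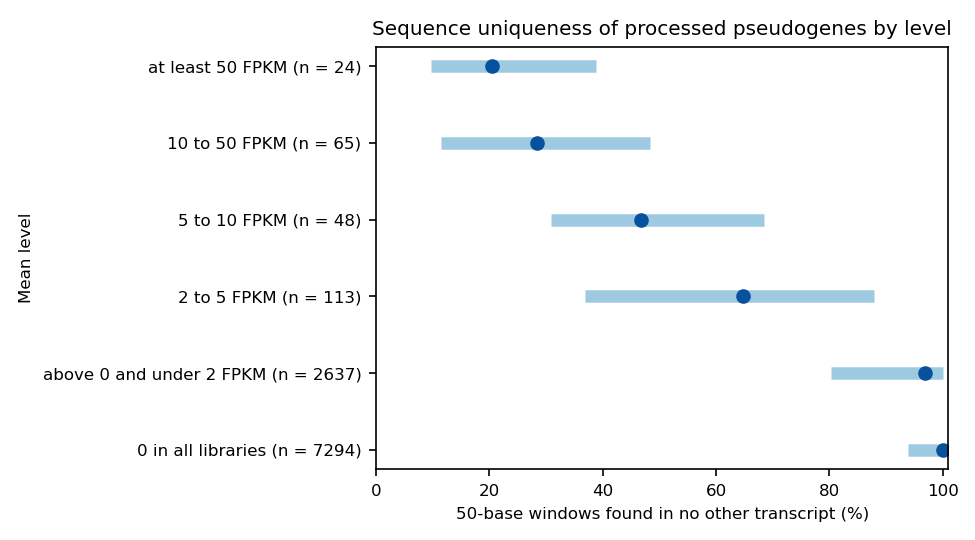
Share of 50-base windows found in no other gene's transcript (x axis, %) for processed pseudogenes in classes of mean level (y axis, n with at least 1 window). Points are medians and bars run between the quartiles; the median is 20.4% in the highest class and 100% among rows at 0 in all libraries.

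The members ran between 2.01 and 681 FPKM in mean level, with 15 to 19927 reads summed over the 4 libraries and a median of 280. At the threshold, the 5 members just inside were COX5BP6, BNIP3P11, AC010598.1, RPL24P2 and AHCTF1P1, at means of 2.03 to 2.01 FPKM. Just outside stood ISCA1P4, PPIAP11, CRSP8P, FNBP1P1 and SNX18P7, at 1.99 to 1.96 FPKM. A library at 0 occurred in 2 members. A group mean under 1 FPKM occurred in 2 others, AC112777.1 and RPL13AP20, which met the rule through the control group, so a difference of some size was needed for them to be members. Further members averaged under 2 FPKM in 1 group and met the rule through the other. Among them were AL355032.1, at 1.41 FPKM in the controls and 3.58 with doxycycline, and RPL24P2, at 1.30 with doxycycline and 2.72 in the controls. The counts below include such members. The 12 highest members held 43.3% of all member reads. Overlap with an exon of another gene occurred in 19 members, on the same strand in 4, and 132 others lay within an intron of another gene. One member lies on chromosome Y, and its values are not given.

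TMSB4XP8 was the highest member by FPKM, with 646 and 500 FPKM in doxycycline replicates 1 and 2, against 851 and 726 FPKM in the controls. RPL39P3 followed with 603 and 377 FPKM with doxycycline, against 664 and 570 FPKM in the controls. TMSB4XP8 lay lower in both doxycycline libraries, whereas doxycycline replicate 1 of RPL39P3 lay between the controls. RPS2P5, a copy of the small-subunit gene RPS2, had 302 and 158 FPKM with doxycycline, against 495 and 359 FPKM in the controls. RPL7P1, a copy of the large-subunit gene RPL7, had 191 and 203 FPKM with doxycycline, against 223 and 183 FPKM in the controls. Its groups overlapped, and those of RPS2P5 did not. EEF1A1P5, a copy of the elongation factor gene EEF1A1, had 201 and 213 FPKM with doxycycline, against 146 and 135 FPKM in the controls. AC116533.1, identical to RPL36A, had 175 and 216 FPKM with doxycycline, against 137 and 129 FPKM in the controls. These last 2 were higher in both doxycycline libraries than in either control. The other 6 of the 12 were RPS2P46, AC022149.1 (identical to a stretch of the integrin gene ITGB1), RPL18AP3, RPL41P1, AC008038.1 (closest to the elongation factor gene EEF1G) and RPL13AP5, with means of 154 to 129.7 FPKM. RPL18AP3 had 149.5 and 62.3 FPKM with doxycycline, against 177 and 151 FPKM in the controls, so doxycycline replicate 2 alone stood far below the others. These ranks are by FPKM, which divides by length, and differ from ranks by reads. TMSB4XP8, of 135 bases, had 1639 and 1237 reads with doxycycline, against 1823 and 1708 in the controls. RPL41P1, of 81 bases, had 222 and 152, against 215 and 164. RPS2P5, of 879 bases, had 4991 and 2547, against 6898 and 5491.

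**Figure D2:**
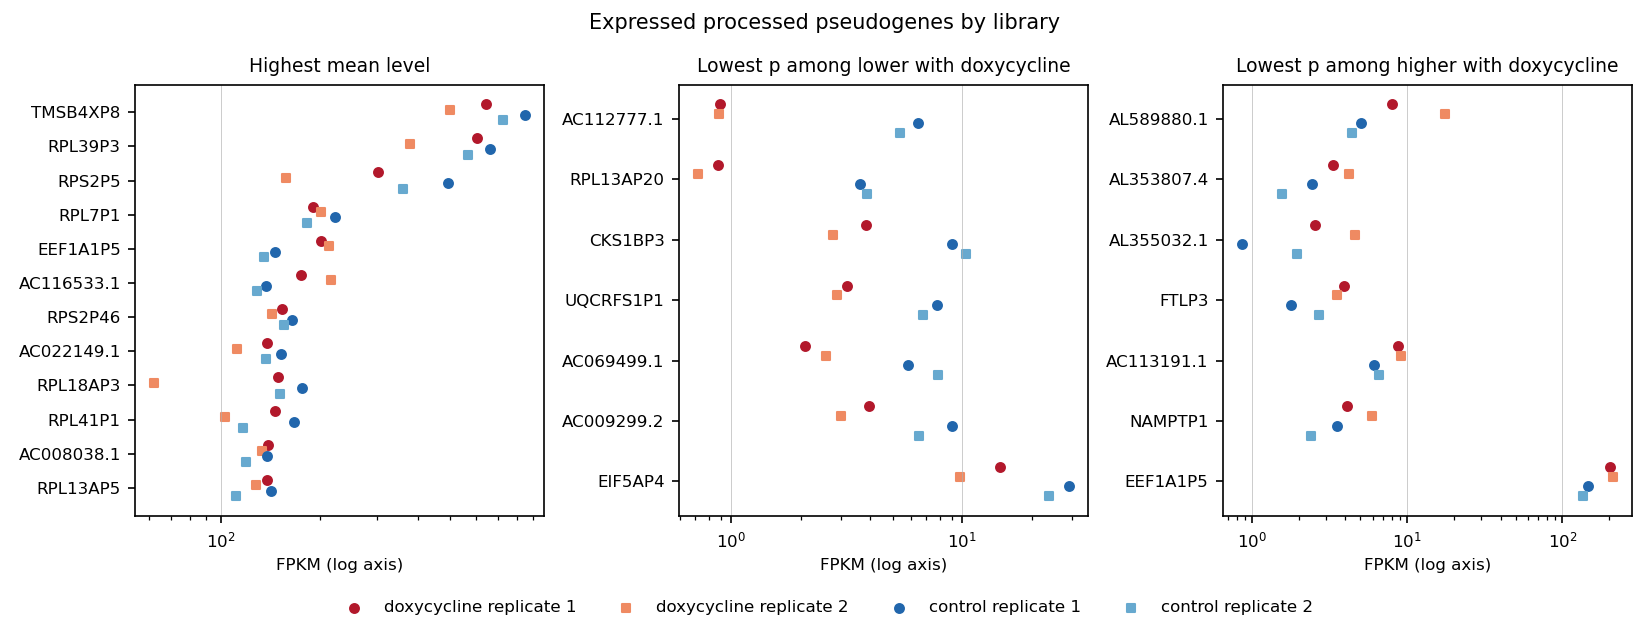
FPKM on a log axis for the 12 highest members (left), 7 of the lower members with the smallest p (middle) and 7 of the higher members with the smallest p (right), with 1 point per library. In the middle panel both doxycycline points lie below both control points in each row, AC112777.1 at 0.90 and 0.88 FPKM with doxycycline against 6.42 and 5.37 FPKM in the controls.

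Levels were set beside the parent's for 224 members with a parent by symbol or description. The median member stood at 10.5% of the parent's FPKM, 11 stood under 1%, and 28 stood above the parent. RPL39P3, which has no unique window, was at 458% of RPL39 in FPKM. FPKM divides by the deposited length, 156 bases for the copy and 2141 for the parent. In reads the copy lay below the parent, at 1769 and 1076 with doxycycline and 1644 and 1548 in the controls. RPL39 had 4990 and 4578 reads with doxycycline and 4514 and 4075 in the controls. Shares of parent FPKM are therefore not shares of reads. AC116533.1 averaged 164 FPKM while RPL36A itself, a gene of the ribosome, was listed at 1.37 and 0.84 FPKM with doxycycline, against 1.08 and 1.07 FPKM in the controls. RPS10, EIF4A1 and CDC42, also genes that every cell uses, were listed at means of 0.825, 0.681 and 0.0786 FPKM. Of the 28 members above their parent, 11 had a parent listed under 2 FPKM. Such a parent value may not give the gene's expression, which limits what the shares of parent level mean. Overlap of these parents with other annotated genes, and the division of reads between copy and parent, was not tested.

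The libraries held 17481827 and 18764546 recovered reads with doxycycline, against 16319640 and 17244546 in the controls. The deposited FPKM rest on other library sizes, 1.88e+07 and 1.83e+07 with doxycycline, against 1.59e+07 and 1.74e+07 in the controls. Doxycycline replicate 1 and control replicate 2 were thus divided by more than their recovered reads, doxycycline replicate 2 and control replicate 1 by less. FPKM and shares of reads therefore have different denominators. For a gene of 500 bases, 3 reads, set here as the floor, came to 0.319 and 0.328 FPKM with doxycycline. In the controls they came to 0.378 and 0.345 FPKM. This floor is an approximate limit for a count of 0 and covers counting error only. Mitochondrially encoded genes took 7.44% and 14.6% of reads with doxycycline, against 8.21% and 8.5% in the controls, so doxycycline replicate 2 stood apart. USP35 had 2.11 and 2.54 FPKM with doxycycline, against 3.31 and 4.19 FPKM in the controls, and did not pass (limma adjusted p = 0.256). The renal transcription factors PAX8 and PAX2 were present in all libraries, at 4.78 to 53.9 FPKM, while CA9, a marker of clear cell carcinoma, was at or near 0, as were the leukocyte and endothelial markers. The 3 fibroblast markers summed to 0.225 and 0.193 FPKM with doxycycline, against 0.804 and 0.712 FPKM in the controls.

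The comparison asked how these transcripts differed after induction of the hairpin. No member passed the test. In the limma fit of the 12029 genes averaging 1 FPKM or more, 0 of 251 members had an adjusted p under 0.05, as did 0 of all genes (0%). The lowest adjusted p over all genes was 0.0573. Leaving aside AC112777.1 and RPL13AP20, which met the rule through the controls, the lowest of a member was 0.0595, of CKS1BP3. On recovered reads limma-voom called 0 members with library totals (0% of all genes) and 1, AC112777.1, with either TMM (0.798% of all genes) or median-of-ratios sizes (1.01%), and that member met the rule through the control group alone. Over genes with a mean of 5 FPKM or more limma called 2 of 138 members (1.45%), both lower, one of them CKS1BP3, against 3.77% of all genes kept there. Without doxycycline replicate 1 the limma count was 79 members (31.5%), against 32.8% of all genes, and without doxycycline replicate 2 it was 41 (16.3%), against 13.3%. At an unadjusted p under 0.05, 51 members (20.3%) were lower with doxycycline, against 11.9% of all genes tested, and 8 (3.19%) were higher, against 6.47%. These counts depended on the fit. Limma-voom gave 15 members lower and 4 higher with library totals, and 20 and 4 with either TMM or median-of-ratios sizes. Under quantile normalization 41 were lower and 11 higher. The shares of all genes in these fits are not given here. Both doxycycline libraries lay below both controls for 87 members (34.7%), against 28.9% of all genes, and above both for 25 (9.96%), against 24.3%. The members' median log2 difference, on the log2(FPKM + 1) scale, was -0.17, and that of all genes was -0.03. Under quantile normalization these medians were -0.11 and 0.03. They were -0.09 and -0.01 without control replicate 1, and -0.28 and -0.04 without control replicate 2.

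The controls differed from each other by as much. The median member differed from the control mean by -0.11 in doxycycline replicate 1 and by -0.24 in replicate 2. These medians carry the library sizes behind the deposited FPKM. In limma-voom with the recovered library totals, the members' median log2 difference between the groups was -0.14, and that of all genes was 0.01. Control replicate 2 minus control replicate 1 had a median of -0.23 over the same members, with 186 of 251 lower in control replicate 2, while the median over all genes was -0.05. Over the members as a whole, the shift between the groups was no larger than this difference between the controls. By what the parent encodes this varied. The 52 ribosomal copies stood at -0.07 and -0.33, and at -0.31 between the controls. The 19 copies of genes for RNA-binding and nuclear proteins stood at -0.62 and -0.42, and at -0.19 between the controls. The 128 processed pseudogenes at 1 to 2 FPKM, not members, stood at -0.14 and -0.18, and at 0.004 between the controls. The parents stood at -0.12 and -0.16 in the doxycycline libraries and -0.24 between the controls. The 83 cytosolic ribosomal protein genes tested, of 88, stood at 0.01 and -0.26, and at -0.31 between the controls. Of these genes, 0 were higher and 1 was lower at an unadjusted p under 0.05.

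**Figure D3:**
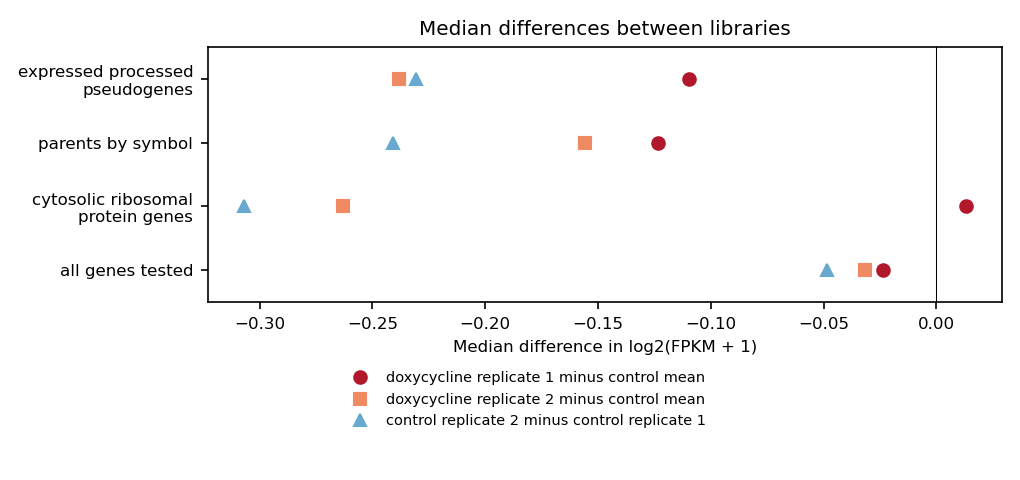
Median difference in log2(FPKM + 1) of each doxycycline library from the control mean and of control replicate 2 from control replicate 1 (x axis), for 4 groups of genes (y axis). For the expressed processed pseudogenes the doxycycline points stand at -0.11 and -0.24 and the difference between the controls at -0.23.

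Reads on all processed pseudogenes made up 0.403% and 0.327% of the doxycycline libraries, against 0.422% and 0.378% of the controls. The means were 0.365% with doxycycline and 0.400% in the controls, a difference of -0.0345 percentage points, and the groups overlapped (exact two-sided permutation p = 0.667, with 0.33 the smallest that 2 against 2 libraries can give). The difference was 0.00347, of the other sign, without doxycycline replicate 2, the library with the high mitochondrial share. Members with ribosomal protein parents made up 0.16% and 0.11% of reads with doxycycline, against 0.176% and 0.147% in the controls.

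The lower members included copies of UHRF1, which serves the upkeep of DNA methylation, and of the cell cycle gene CKS1B. AC112777.1, the UHRF1 copy, had 0.90 and 0.88 FPKM with doxycycline (24 and 23 reads), against 6.42 and 5.37 FPKM in the controls (145 and 133 reads). The means were 0.89 ± 0.01 FPKM with doxycycline and 5.90 ± 0.75 FPKM in the controls (SD, n = 2 each), a ratio of 0.151. It is a member through the control group alone, so the difference is a description and no p is given. UHRF1 itself had 4.25 and 2.75 FPKM with doxycycline, against 22.2 and 20.03 FPKM in the controls, and so copy and parent were both low in the doxycycline libraries with no overlap. CKS1BP3, a copy of the cyclin-dependent kinase regulatory subunit CKS1B that differs at 1 of 237 bases, had 3.82 and 2.76 FPKM with doxycycline, against 9.04 and 10.4 FPKM in the controls (limma adjusted p = 0.0595). CKS1B had 19.9 and 16.5 FPKM with doxycycline, against 44.9 and 36.9 FPKM in the controls, and neither gene's groups overlapped.

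RPL13AP20 was low with doxycycline while its parent was not. It had 0.87 and 0.72 FPKM with doxycycline (10 and 8 reads), against 3.62 and 3.87 FPKM in the controls (35 and 41 reads), a ratio of 0.212. It too is a member through the control group alone, and no p is given. RPL13A had 688 and 579 FPKM with doxycycline, against 693 and 561 FPKM in the controls, with overlap. Of the copy's 50-base windows 73.2% were unique, and the copy stood at 0.36% of the parent's level.

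Further lower members with a small p were UQCRFS1P1, AC069499.1, AC009299.2 and EIF5AP4. UQCRFS1P1, a copy of the Rieske protein gene of respiratory complex III, had 3.18 and 2.86 FPKM with doxycycline, against 7.76 and 6.79 FPKM in the controls (limma adjusted p = 0.0696). AC069499.1, a copy of RPL13 that is 71.5% identical and unique throughout, had 2.09 and 2.57 FPKM with doxycycline, against 5.82 and 7.90 FPKM in the controls (limma adjusted p = 0.0696). For both, all doxycycline values lay below all control values. UQCRFS1 had 37.5 and 48.0 FPKM with doxycycline, against 62.7 and 50.8 FPKM in the controls, without overlap. RPL13 had 231 and 122 FPKM with doxycycline, against 244 and 197 FPKM in the controls, with overlap. AC009299.2, a copy of MXRA7, had 3.96 and 2.99 FPKM with doxycycline, against 9.0 and 6.52 FPKM in the controls (limma adjusted p = 0.119). EIF5AP4 had 14.5 and 9.75 FPKM with doxycycline, against 29.1 and 23.7 FPKM in the controls (limma adjusted p = 0.12).

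Fewer members were higher with doxycycline than lower. AL589880.1, closest to the translation factor gene EIF4B, had 7.97 and 17.5 FPKM with doxycycline (43 and 92 reads), against 5.05 and 4.40 FPKM in the controls (23 and 22 reads), a log2 difference of 1.17 with a standard error of 0.35 (limma adjusted p = 0.178). Both doxycycline libraries lay above both controls, with replicate 2 much the higher. NAMPTP1, a copy of the NAD synthesis gene NAMPT, had 4.11 and 5.93 FPKM with doxycycline, against 3.51 and 2.42 FPKM in the controls (limma adjusted p = 0.269). NAMPT had 14.9 and 18.1 FPKM with doxycycline, against 10.0 and 8.93 FPKM in the controls, so both were higher without overlap. FTLP3, a copy of the ferritin light chain gene FTL, had 3.93 and 3.52 FPKM with doxycycline, against 1.79 and 2.72 FPKM in the controls (limma adjusted p = 0.259). FTL had 4078 and 3821 FPKM with doxycycline, against 2416 and 2245 FPKM in the controls. EEF1A1P5, given above, had a log2 difference of 0.56 with a standard error of 0.23 (limma adjusted p = 0.273), and EEF1A1 one of 0.44. The rest of the 8 were AL353807.4, AL355032.1, AC113191.1 and the member on chromosome Y. AL353807.4 and AC113191.1 had limma adjusted p of 0.215 and 0.264. AL355032.1 averaged under 2 FPKM in the controls and is a member through the doxycycline group, so no p is given.

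Grouped by what the parent encodes, no group had a member past the adjusted threshold. Members named below for their group were chosen after their values were seen. The 52 copies of cytosolic ribosomal protein genes had 0 higher and 7 lower (13.5%) at an unadjusted p under 0.05 and a median log2 difference of -0.14. Over all genes tested 6.47% were higher and 11.9% lower, and the median was -0.03, so the ribosomal copies were near the background in the share lower. The 19 copies of genes for RNA-binding and nuclear proteins had 0 higher and 8 lower (42.1%, against 11.9% of all genes) and a median of -0.49. Both doxycycline values lay below both control values in 14 of 19 (73.7%, against 28.9% of all genes). The 14 include PTMAP2 and HNRNPA3P6, which met the rule through the controls. They also include HMGN1P36, a copy of HMGN1, at 1.61 and 2.38 FPKM with doxycycline, against 2.96 and 3.08 FPKM in the controls. All genes were kept at a mean of 1 FPKM, so the 2 shares are not like for like and are a description. Several of the 19 share a parent, with 3 from HNRNPA1 and 2 each from HMGB1 and YBX1, and copy and parent can share reads. SETP14, a copy of SET, stood on the other side, at a log2 difference of 0.21. YBX1P1, a copy of the cold-shock domain protein gene YBX1, had 5.54 and 3.75 FPKM with doxycycline, against 11.2 and 8.67 FPKM in the controls. HMGB1P6 had 52.2 and 77.9 FPKM with doxycycline, against 129 and 118 FPKM in the controls, without overlap. PTMAP2, a copy of the prothymosin alpha gene PTMA, and HNRNPA3P6, a copy of the splicing protein gene HNRNPA3, were also lower, at log2 differences of -0.60 and -0.67. Both averaged under 2 FPKM with doxycycline and met the rule through the controls, so these differences are a description. The parents YBX1, HMGB1, PTMA and HNRNPA3 stood at log2 differences of -0.53, -1.09, -0.86 and -0.97.

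The 12 copies of translation factor and nascent-chain genes had values in both directions, with 1 higher (8.33%, against 6.47% of all genes) and 3 lower (25%, against 11.9%) and a median of 0.02. Besides EIF5AP4, the lower ones were EIF1AXP1 and EIF4HP1, copies of initiation factor genes, at log2 differences of -0.70 and -0.60. The 5 copies of the ferritin genes FTH1 and FTL had 1 higher (20%, against 6.47% of all genes) and 0 lower and a median of 0.39, the only group of these with a median above 0.1. FTH1P8 had 11.5 and 9.45 FPKM with doxycycline, against 8.58 and 6.93 FPKM in the controls, while FTH1P2, FTH1P7 and FTH1P23 overlapped. FTH1, the parent of 4 of the 5, had 1030 and 699 FPKM with doxycycline, against 857 and 809 FPKM in the controls, with overlap. The 6 copies of mitochondrial protein genes had 0 higher and 1 lower, the 5 of chaperone and isomerase genes 0 and 2, the 2 of cytoskeletal genes 0 and 1 and the 2 of glycolytic genes 0 and 1, groups too small to set against the 6.47% higher and 11.9% lower of all genes. The 58 copies of other named parents had 2 higher (3.45%) and 13 lower (22.4%) with a median of -0.14. The 90 whose symbol gives no parent had 4 higher (4.44%) and 15 lower (16.7%) with a median of -0.19, against the same 6.47% and 11.9% of all genes.

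Members and parents tended to lie on the same side of 0. Over the 155 members whose parent, by symbol, was also tested, Pearson's r between the log2 differences of copy and parent was 0.65 and Spearman's rho 0.64, with the same sign in 115. The 155 include the member on chromosome Y, in the class from 25% to 50% unique windows below, which the figure leaves out. These points come from the same 4 libraries, several share a parent, and copy and parent can share reads, so the values are a description. By share of unique windows, r was 0.72 under 25% (n = 46), 0.67 from 25% to 50% (n = 44), 0.58 from 50% to 75% (n = 43) and 0.50 at 75% or more (n = 22). Spearman's rho in the same classes was 0.70, 0.52, 0.64 and 0.58, and the sign was shared by 32 of 46, 32 of 44, 35 of 43 and 16 of 22, with no steady order.

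**Figure D4:**
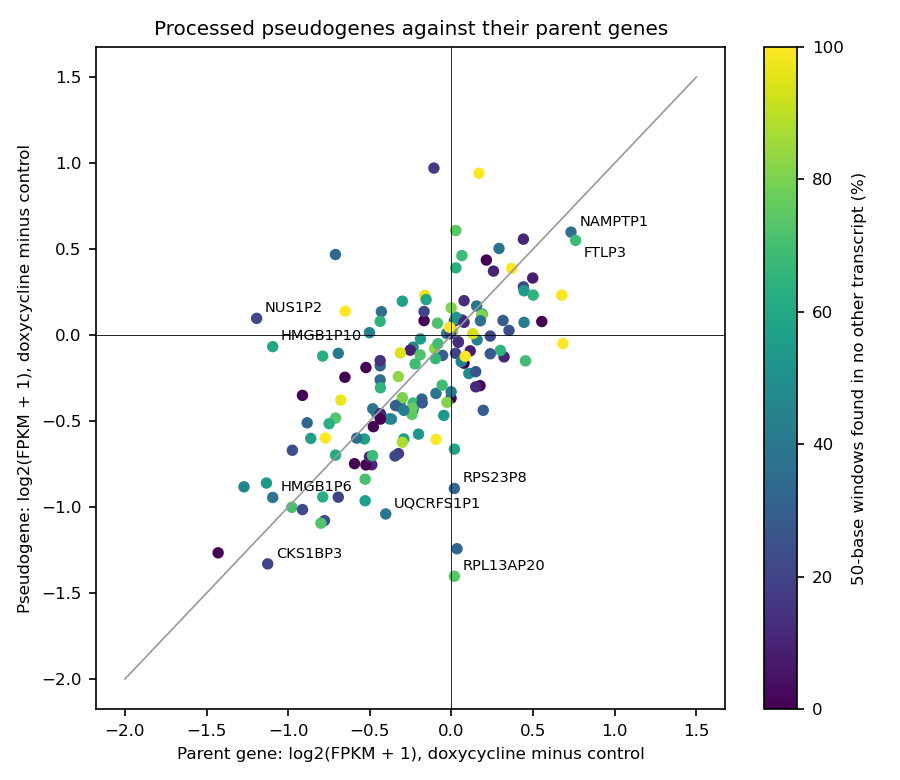
Log2 difference, doxycycline minus control, of each member (y axis) against that of its parent by symbol (x axis), coloured by the share of unique 50-base windows; the member on chromosome Y is left out and the grey line marks equality. Most points lie near the line, CKS1BP3 low on both axes, while RPL13AP20 and RPS23P8 lie below it and NUS1P2 and HMGB1P10 above it.

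Whether a copy and its parent responded differently was tested on the ratio of their levels in 223 pairs in which both averaged at least 1 FPKM. No ratio passed (0%, lowest limma adjusted p = 0.247), and 16 (7.17%) had an unadjusted p under 0.05. The log2 ratio of RPL13AP20 to RPL13A differed by -1.42, given as a description since the copy averaged under 1 FPKM with doxycycline. Without control replicate 1, 1 ratio was called (0.448%), that of RPL13AP20. This copy met the rule through the controls, and that fit had 1 control library. The call is therefore not evidence of a difference. Without the filter on low values, 27 of 1511 ratios (1.79%) were called. NUS1P2, a copy of the dolichol synthesis gene NUS1, had 8.90 and 6.32 FPKM with doxycycline, against 6.28 and 7.70 FPKM in the controls, with overlap. NUS1 itself had 5.77 and 6.68 FPKM with doxycycline, against 16.9 and 14.2 FPKM in the controls, with none, and the log2 ratio differed by 1.29. NUS1P2 shares 652 exon positions with the noncoding gene LINC00621, on the other strand, and reads of the 2 cannot be told apart without strand. HMGB1P10 had 3.97 and 4.27 FPKM with doxycycline, against 4.14 and 4.59 FPKM in the controls. HMGB1 had 30.7 and 38.4 FPKM with doxycycline, against 83.2 and 66.6 FPKM in the controls, and the log2 ratio differed by 1.03. HMGB1P6, the other copy of the same parent among the members, was low together with HMGB1 as described above, and its share of unique windows was 38.7%, that of HMGB1P10 60.1%. RPS23P8, a copy of the small-subunit gene RPS23, had 2.90 and 2.32 FPKM with doxycycline, against 7.07 and 4.52 FPKM in the controls, while RPS23 overlapped between the groups, and the log2 ratio differed by -0.91. The remaining 2 of the 6 pairs with the smallest p, HMGB1P31 and UBE2FP1, had means under 2 FPKM and are not members.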

How the data were processed

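RNA from 4 libraries of 769-P cells was sequenced, and the authors deposited 1 table per library with FPKM for 58735 genes, per the file headers. The submitters' processing notes list limma, featureCounts 1.5.0-p3 and HISAT2 2.0.5 without saying what each was used for. Read length, strandedness and genome build are not given in the sources used here. All identifiers, starts and ends matched GENCODE release 29 on GRCh38.

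Whole reads were recovered from the steps in FPKM times gene length, which were whole within 0.02 reads for 100% of genes in every library. Lengths were used as deposited, so FPKM of very short rows is not adjusted for fragment size. The 12029 genes averaging 1 FPKM or more were tested with limma-trend (limma 3.58.1, R 4.3.3) on log2(FPKM + 1), two-sided, with 2 residual degrees of freedom and Benjamini-Hochberg adjustment. This scale understates differences of low genes. The same test was run on pseudogene to parent ratios. The fits were tested on simulated data.

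Parents were protein-coding genes whose symbol is the pseudogene's without its ending P and number. Sequences were aligned with blastn 2.17.0 at an e-value limit of 0.001. Named were the 12 highest members, the 8 with the lowest p in each direction, 5 rows on each side of the threshold, the 6 ratios with the lowest p, their parents and USP35, except 1 lower member, its parent and 1 marker, which are not reported here. The members and lists were chosen with earlier results of these data known. Alternatives covered pseudocount, filters, scaling, limma-voom on recovered reads, a replicate block and leaving out each library. Other steps used numpy 2.4.6 and pandas 2.3.3 under Python 3.11.15.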

Additional observations from a re-analysis of the deposited data

How the results depend on the processing

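With 2 libraries a group the number called depended on the libraries and settings entered, and the cause was not tested. Over all genes 0 were called, against 261 with a filter of at least 5 FPKM, 121 and 96 in limma-voom with median-of-ratios and TMM sizes, and 0 to 3942 with 1 library left out. Among the members the counts were 2, 1, 1 and 0 to 79. Ratios called numbered 27 without a filter and 0 to 1 with 1 library left out. The difference in read share ran between -0.0726 and 0.00347 percentage points over the left-out libraries. Where a group was left with 1 library, its spread was taken to be that of the other group. With a replicate block, 784 genes, 21 members and 11 ratios were called. The numbers are not stated to pair the libraries, there are only 2 pairs, and the differences between replicates correlated at r = 0.21 over 12029 genes, so the block is given here alone. Reading parents also from the descriptions was an alternative chosen after seeing the data, and 0 ratios were called with it. Of 477 single alternatives over 40 results, 406 kept direction and side of the threshold, 53 passed it and 18 changed sign. RPL7P1 stood at 0.0764 under quantile normalization, 0.0052 without mitochondrially encoded genes and 0.00936 in limma-voom with library totals, and RPS2P46 at 0.0541 under quantile normalization. With 1 library left out, log2 differences ran between -0.18 and 0.10 for RPL7P1, -0.45 and 0.0718 for RPL41P1, -0.0259 and 0.19 for AC008038.1, -0.10 and 0.26 for RPL13AP5, -0.28 and 0.37 for COX5BP6, -0.47 and 0.75 for BNIP3P11, -0.25 and 1.81 for AC010598.1, -0.16 and 0.33 for AHCTF1P1, and -0.12 and 0.31 for NUS1P2. At the lowest levels, depth limits the members to a few reads a library.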
